A study of Homo sapiens with 8 samples.

Results

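Albumin and further carrier proteins of the blood plasma are encoded here by 9 genes, ALB, TTR, TF, RBP4, AHSG, FETUB, AMBP, HPX and GC. They were chosen by symbol from a list of carriers that hepatocytes secrete, and all 9 were found among the 17561 genes of the deposited expression table. The values come from RNA-seq of HepG2, an established human line that stems from a liver tumor and keeps many hepatocyte genes active. Cells received either a plasmid encoding GRHL2 (pGRHL2), a transcription factor of epithelial cells, or the control plasmid pcDNA3, and were collected 48 h later, with 4 libraries per plasmid numbered 1 to 4. Both groups were grown on gelatin in medium holding 10% serum, 20 mU/ml of bovine insulin and, per the labels, 50 nM of dexamethasone. The pGRHL2 construct carried a flag-tagged GRHL2 cDNA behind an EEF1A1 promoter together with EGFP, so GRHL2 was not all that set the plasmids apart, and each value averages over all cells of a culture, whether or not they took up the plasmid.

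Plasma carrier proteins bind poorly soluble or reactive molecules and take them through the blood. Albumin carries fatty acids, bilirubin and hormones, and transthyretin, transferrin, retinol-binding protein, hemopexin and the vitamin D-binding protein each have a preferred cargo, namely thyroxine, iron, retinol, heme and vitamin D. Hepatocytes make most of them in large amounts, and for that reason their transcripts are among the usual signs of hepatocyte identity.

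Each gene had 1 value per library on a log2 scale, made by the authors from read counts and divided by transcript length. Per the methods, this length averaged all annotated transcripts of a gene symbol, whichever were expressed. Levels of different genes are set side by side within that limit, and folds between genes are approximate. Averaging the pGRHL2 and pcDNA3 libraries of 1 number gave the same mean for each of the 4 numbers, in 17561 of 17561 genes. A library that lies above a gene's mean is therefore mirrored by its same-numbered partner below it, and differences are given over 4 pairs as log2 FC (pGRHL2 minus pcDNA3) ± the SD of the pair differences. Adjusted p-values come from limma with Benjamini-Hochberg adjustment over all genes. The sequencing depth is unknown, and the library medians lay between 6.71 and 6.73. GRHL2, which checks the labels, ranged from 16.22 to 16.87 in pGRHL2 and from 6.61 to 7.25 in pcDNA3, a log2 FC of 9.48 ± 0.57 over 4 pairs (adjusted p = 4.84e-08 by limma). By RT-qPCR, another measure, the paper found little or no GRHL2 in HepG2 under basal conditions. The pcDNA3 values are therefore not read here as ordinary expression of the gene.

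The carrier genes spanned almost the whole range of levels in the table. ALB had a mean log2 value of 16.88 over the 8 libraries and ranked 2 of 17561 genes. The gene above it was AFP (17.11), which encodes alpha-fetoprotein, the fetal relative of albumin, and was chosen for mention after its value was seen. AMBP (13.70, rank 61), TF (13.20, rank 103), AHSG (13.18, rank 105) and RBP4 (12.08, rank 321) followed. TTR was lower at 9.83 (rank 2463), with 86.0% of all genes below it. The remaining genes were no abundant transcripts in these cells. HPX, at 6.34, had only 47.0% of genes below it, and FETUB (2.45) and GC (0.60) had 21.0% and 7.32%.

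**Figure D1:**
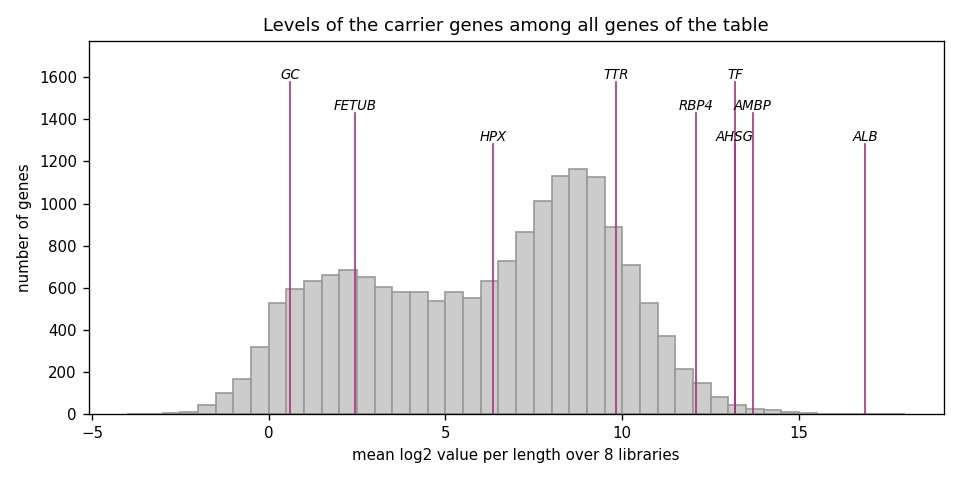
Histogram of the mean log2 value per transcript length over 8 libraries (x axis) for all 17561 genes (y axis, number of genes), with a line at each of the 9 carrier genes. ALB (16.88), AMBP, TF, AHSG and RBP4 sit in the right tail, HPX (6.34) near the middle, and FETUB (2.45) and GC (0.60) at the left.

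The order of these levels was kept in 8 of 8 libraries for all neighbours but one. TF and AHSG differed by 0.02 ± 0.09 (SD, n = 8 libraries) on the log2 scale, TF being the higher in 4 of 8 libraries, so that they cannot be ranked. Same-numbered libraries mirror each other, so the 8 values are 4 deviations, each counted in both directions around 1 mean. The SD and the library counts given here thus hold no spread between replicate means. ALB exceeded AMBP by 3.18 ± 0.10, a 9.05-fold difference in level. AMBP exceeded TF by 0.49 ± 0.10, and AHSG exceeded RBP4 by 1.10 ± 0.14. RBP4, the retinol carrier, was 4.76-fold above TTR, the protein it travels with in plasma (difference in level of 2.25 ± 0.16). The paralogs AHSG and FETUB, the fetuins A and B, lay 10.73 ± 0.07 apart, and ALB and its relative GC 16.27 ± 0.11 apart, each in log2 units. In 244 genes whose values varied by less than 0.02 over the libraries, levels fell with log2 transcript length (slope of -0.835). GC, at 0.592 to 0.608, was among them, so its level cannot be read as an amount of RNA. FETUB was weakly expressed too. The step from FETUB to GC and the gaps to both are therefore no ratios of abundance.

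Upon GRHL2 ectopic expression, 0 of the 9 carrier genes were called higher or lower by limma at an adjusted p under 0.05, while 2.19% of all genes were called, 1.69% higher and 0.501% lower. At an unadjusted p under 0.05, 1 of the 9, AHSG, passed, against 16.0% of all genes. The groups did not overlap for AHSG alone, 1 of 9, whereas this held for 24.0% of all genes. With mirrored pairs, groups fail to overlap exactly when all pair differences have the same sign. The count is therefore one of signs and not of independent libraries. The log2 FC were positive for 5 carriers and negative for 4, with a median of 0.012 beside 0.0017 over all genes, and they ranged from -0.09 for RBP4 to 0.14 for TTR. In these bulk samples, a change in the number of cells expressing a gene and a change in RNA per cell cannot be told apart.

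**Figure D2:**
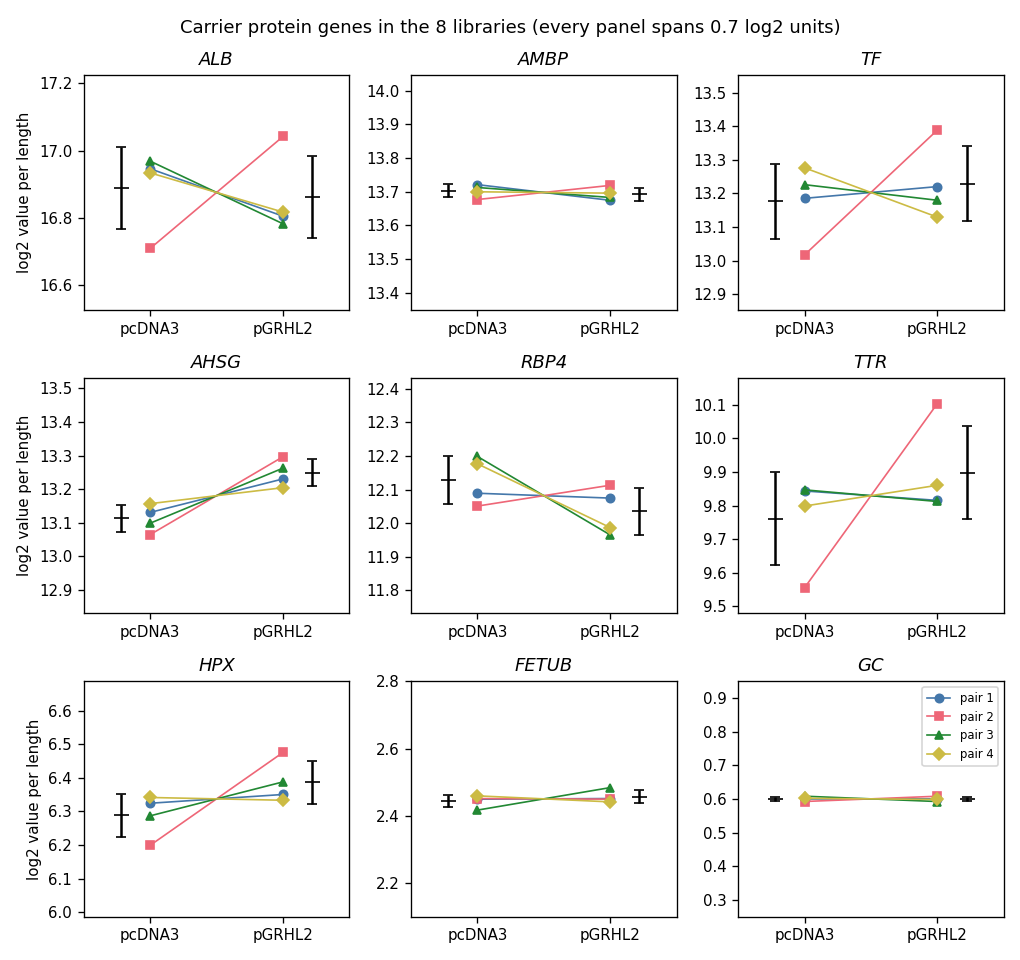
Log2 value per transcript length (y axis) of the 9 carrier genes in the pcDNA3 and pGRHL2 libraries, with same-numbered libraries joined and the group mean ± SD (n = 4 libraries) at the sides. Every panel spans 0.7 log2 units, so that slopes can be compared, and pair 2 is the steepest upward line in ALB, TF, TTR and HPX.

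ALB was examined first, as the most abundant carrier. Libraries 1 to 4 of pGRHL2 gave log2 values of 16.80, 17.04, 16.78 and 16.82, and libraries 1 to 4 of pcDNA3 gave 16.95, 16.71, 16.97 and 16.93. Library 2 was thus the highest of the pGRHL2 group, and the mirroring of pairs makes its partner the lowest of the pcDNA3 group. In the other 3 pairs pGRHL2 was below pcDNA3, so that the groups overlapped. The mean difference was a log2 FC of -0.03 ± 0.24 (SD, 4 pairs), with a 95% interval from -0.19 to 0.14, which is a fold between 0.874 and 1.10 (adjusted p = 0.913 by limma). A two-sided exact sign-flip test over pairs gave p = 1.0, and the smallest value that 4 pairs allow is 0.125. Without replicate 2, the log2 FC of ALB was -0.15 ± 0.04 over 3 pairs, its limma adjusted p fell under the threshold at 0.029, and ALB was then 1 of 13 genes called lower, or 0.0740% of those tested. The call on ALB therefore depended on this replicate, which was singled out for its own difference.

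ALB maps to chromosome 4 (hg38, 73397114 to 73421482, plus strand) and shares 0 exon bases with other genes in GENCODE release 44. The 250 bases before its RefSeq start (GRCh38.p14, chr4:73404037-73404286, plus strand) are shown because liver factors named further on recognise elements of this kind. Capitals mark a match to TTATGTAA, an element of the PAR bZIP family, at position -236 from the start, and a match to GTTAAT, an element of the HNF1 factors, at position -61.
ALB promoter: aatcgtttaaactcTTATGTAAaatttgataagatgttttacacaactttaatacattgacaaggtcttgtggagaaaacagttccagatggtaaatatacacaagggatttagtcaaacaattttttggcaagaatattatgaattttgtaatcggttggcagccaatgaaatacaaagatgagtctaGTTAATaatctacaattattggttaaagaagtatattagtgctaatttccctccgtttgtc
On either strand, TTATGTAA was found in 0.834% and GTTAAT in 6.23% of 35116 RefSeq promoters of the same length. A match in letters describes the sequence and is no measure of binding.

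The genes whose differences were most like those of ALB were sought by the Euclidean distance over the 4 pair differences, among the genes above the median level of the table. The closest of these was APOH (distance of 0.076), which encodes the plasma beta-2-glycoprotein, itself a hepatocyte product. Its pair differences were -0.08, 0.31, -0.17 and -0.15, beside -0.14, 0.33, -0.19 and -0.12 for ALB, and its log2 FC was -0.02 ± 0.23. MIS18A, CARNMT1, GINS2 and SLC31A1 came next, at distances from 0.106 to 0.124. The likeness rests on 4 pairs from the same libraries.

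TTR and RBP4, the carriers of thyroxine and retinol, were compared next, since their proteins circulate as a complex. TTR values were 9.82, 10.10, 9.81 and 9.86 in pGRHL2 libraries 1 to 4 and 9.84, 9.56, 9.85 and 9.80 in pcDNA3 libraries 1 to 4. Pair 2 stood apart, with a difference of 0.55, while the other 3 pairs differed by -0.03, -0.03 and 0.06. For TTR the log2 FC came to 0.14 ± 0.28 (95% interval from -0.08 to 0.36; adjusted p = 0.562 by limma), which was smaller than the spread between pairs. Without replicate 2 it was -2.93e-04 ± 0.05. TTR maps to chromosome 18 (31557009 to 31598833, plus strand).

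RBP4 values were 12.07, 12.11, 11.97 and 11.99 in pGRHL2 libraries 1 to 4 and 12.09, 12.05, 12.20 and 12.18 in pcDNA3 libraries 1 to 4. RBP4 was lower in pGRHL2 in 3 of 4 pairs and the groups overlapped through pair 2. With a log2 FC of -0.09 ± 0.14 (95% interval from -0.23 to 0.04; adjusted p = 0.504 by limma) the difference did not pass the threshold, and the exact sign-flip test gave p = 0.375. RBP4 maps to chromosome 10 (93591687 to 93601744, minus strand). The point estimates of these partners had opposite signs, but both intervals included 0, and the difference between them was not tested.

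TF, HPX and AMBP act on iron and heme or protect tissues from them. TF encodes transferrin, which delivers ferric iron to cells. Its values were 13.22, 13.39, 13.18 and 13.13 in pGRHL2 libraries 1 to 4 and 13.19, 13.02, 13.23 and 13.28 in pcDNA3 libraries 1 to 4. TF was higher in pGRHL2 in pairs 1 and 2 and lower in pairs 3 and 4. On average the log2 FC was 0.05 ± 0.22 (95% interval from -0.12 to 0.22; adjusted p = 0.804 by limma). TF maps to chromosome 3 (133746040 to 133796641, plus strand) and shares 1.20% of its exon bases with SRPRB and an unnamed gene, over which unstranded reads cannot be assigned.

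HPX encodes hemopexin, which binds free heme with high affinity. Its values were 6.35, 6.48, 6.39 and 6.33 in pGRHL2 libraries 1 to 4 and 6.32, 6.20, 6.29 and 6.34 in pcDNA3 libraries 1 to 4. HPX was higher in pGRHL2 in 3 of 4 pairs, with a difference of 0.28 in pair 2, and the groups overlapped through pair 4. Its log2 FC of 0.10 ± 0.13 (95% interval from -0.03 to 0.23; adjusted p = 0.459 by limma) was not called. HPX maps to chromosome 11 (6431049 to 6442617, minus strand).

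AMBP encodes a precursor that is cut into alpha-1-microglobulin, a lipocalin that binds heme, and bikunin, the light chain of the inter-alpha-trypsin inhibitors. Its values ran from 13.67 to 13.72 in pGRHL2 and from 13.68 to 13.72 in pcDNA3, so that the groups covered the same range. This gave a log2 FC of -0.01 ± 0.04 (95% interval from -0.09 to 0.07; adjusted p = 0.937 by limma). Among the abundant carriers, it had the smallest SD of pair differences, the others being 0.24 for ALB, 0.22 for TF, 0.14 for RBP4 and 0.08 for AHSG. AMBP maps to chromosome 9 (114060127 to 114078328, minus strand). Of the inter-alpha-trypsin inhibitor heavy chains to which bikunin is joined, 4 were in the table and 0 were called. Their log2 FC were 0.05 ± 0.09 for ITIH1, -0.04 ± 0.18 for ITIH2, 0.13 ± 0.17 for ITIH3 and 0.16 ± 0.16 for ITIH5.

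AHSG and FETUB encode fetuins, plasma glycoproteins of the cystatin superfamily, of which fetuin-A keeps calcium phosphate in solution. AHSG was higher in pGRHL2 in 4 of 4 pairs. Its values were 13.23, 13.30, 13.26 and 13.20 in pGRHL2 libraries 1 to 4 and 13.13, 13.06, 13.10 and 13.16 in pcDNA3 libraries 1 to 4. Since the pairs are mirrored, 4 positive pair differences also place all 4 pGRHL2 libraries above all 4 pcDNA3 libraries, the closest values being 13.20 and 13.16. They differed by a log2 FC of 0.14 ± 0.08, with a 95% interval from 0.04 to 0.23 or a fold between 1.03 and 1.18, but the limma adjusted p over all genes was 0.156 and the difference did not pass the threshold. The exact sign-flip test gave p = 0.125, the smallest value possible with 4 pairs. In the limma fit without the replicate block, which counts 6 residual degrees of freedom where the mirrored pairs leave 3, AHSG was called higher (adjusted p of 0.011), as were 10.4% of all genes.

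AHSG maps to chromosome 3 (186613060 to 186621318, plus strand), with FETUB downstream on the same strand (186635969 to 186653141). The 250 bases before the AHSG start (RefSeq, GRCh38.p14, chr3:186612810-186613059, plus strand) are shown because AHSG was the carrier whose groups did not overlap. Capitals mark a match to AACNNGTT, a Grainyhead core with an open middle, at position -141 from the start.
AHSG promoter: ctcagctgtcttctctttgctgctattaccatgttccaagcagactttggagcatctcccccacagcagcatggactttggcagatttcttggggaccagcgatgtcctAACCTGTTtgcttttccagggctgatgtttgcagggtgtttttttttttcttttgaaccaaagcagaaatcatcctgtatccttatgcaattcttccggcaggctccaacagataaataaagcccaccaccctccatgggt
On either strand, AACNNGTT was found in 1053 of the 35116 promoters, and in 41 of them as AACCGGTT, the stricter form it contains. Promoters of 7 of the 9 carrier genes were in the RefSeq table, and AHSG was the gene among these 7 with a match to AACNNGTT. The match is a description of the letters and was not set against binding data.

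FETUB values ran from 2.44 to 2.48 in pGRHL2 and from 2.42 to 2.46 in pcDNA3, and GC values from 0.59 to 0.61 in both groups. For FETUB the log2 FC was 0.01 ± 0.04, and for GC, the vitamin D-binding protein, -7.95e-04 ± 0.01 (adjusted p = 0.861 and 0.987 by limma). The rlog transformation draws the libraries together for genes with few reads, so that these narrow ranges do not show that the transcripts were steady. FETUB shares 4.15% of its exon bases with HRG-AS1, and GC maps to chromosome 4 (71741696 to 71804041, minus strand).

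**Figure D3:**
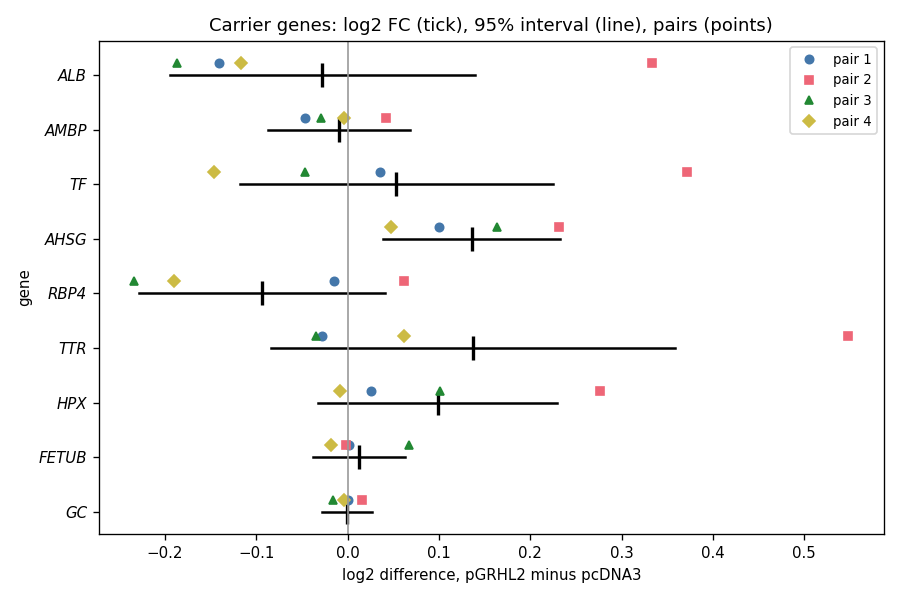
Log2 difference between pGRHL2 and pcDNA3 (x axis) of the 9 carrier genes (y axis), with the log2 FC as a tick, its 95% interval as a line and the 4 pair differences as points. The interval lies above 0 for AHSG and includes 0 for the other 8 genes, and pair 2 is the rightmost point in all of them but FETUB.

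The pair differences of the carriers had a common feature. Pair 2 held the highest of the 4 differences in 8 of 9 carrier genes, FETUB being the exception, whereas it did so in 25.8% of all genes and in 31.5% of the 321 genes at or above the median carrier level. The median difference over the carriers was 5.0e-04, 0.23, -0.03 and -0.01 in pairs 1 to 4, beside 0.0016, 0.0059, 0.0013 and 7.75e-04 over all genes. Other hepatocyte products also had their highest median in pair 2. The median differences in pairs 1 to 4 were -0.03, 0.26, -0.02 and -0.10 over 8 hepatocyte markers and 0.11, 0.26, 0.03 and -0.01 over 15 other plasma transport proteins. The part of replicate 2 in these values was not tested beyond leaving it out.

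**Figure D4:**
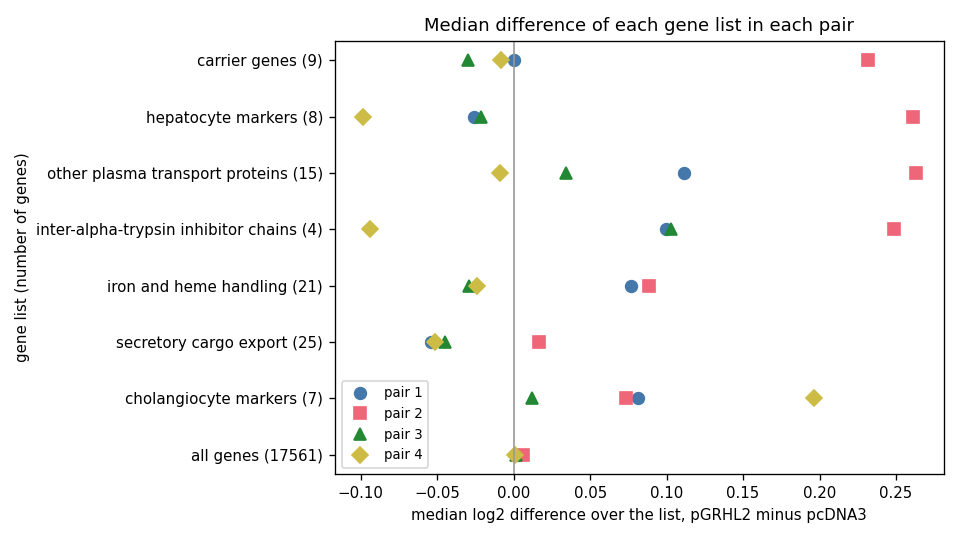
Median log2 difference between pGRHL2 and pcDNA3 (x axis) over each gene list (y axis, number of genes in brackets) in each of the 4 pairs. In pair 2 the medians of the carrier genes (0.23), the hepatocyte markers (0.26) and the other plasma transport proteins (0.26) lie to the right of the other 3 pairs, while the medians of all genes lie together near 0.

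Without replicate 2, ALB, RBP4 and AMBP were lower and AHSG was higher in pGRHL2 with groups that did not overlap, 4 of the 9 genes, against 34.0% of all genes. With mirrored pairs this means only that the 3 remaining differences of a gene share a sign. Replicate 2 was singled out for its own differences in these genes, so the agreement of the rest is no separate result. The log2 FC without replicate 2 were -0.15 ± 0.12 (SD, 3 pairs) for RBP4, -0.03 ± 0.02 for AMBP, 0.10 ± 0.06 for AHSG and -0.05 ± 0.09 for TF. Of the 9 genes, ALB alone was then called by limma.

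Levels of 8 hepatocyte markers, all of which were in the table, ran from 2.73 to 17.11. The highest was AFP, which the paper counts among progenitor genes and which dominates the sum. These markers are therefore a limited check of hepatocyte identity. Their summed level was 17.41 to 17.60 in pGRHL2 and 17.32 to 17.50 in pcDNA3 (log2), and 0 of 8 were called. The widest log2 FC were -0.03 ± 0.26 for APOA1 and 0.28 ± 0.33 for FGB, a fibrinogen chain, which was 0.12 without replicate 2. All 7 cholangiocyte markers had positive log2 FC, as had 51.5% of all genes, with a median of 0.11. By limma 0 of 7 were called, the extremes being 0.01 ± 0.01 for CFTR and 0.21 ± 0.13 for CD24. The paper, which used DESeq2 on counts, reports KRT7, a member of this list, as induced by GRHL2, though not every common cholangiocyte marker. It also reports a gain of cholangiocyte-enriched genes as a set in HepG2. Their summed level was 15.00 to 15.19 in pGRHL2 and 14.86 to 15.07 in pcDNA3, and CFTR was near the bottom of the table at -1.07. Of 12 markers of fibroblasts, endothelium and immune cells, 4 were in the table and 0 were called, from -0.03 ± 0.03 for CD14 to 0.20 ± 0.10 for COL1A1, with a summed level of 8.81 to 9.17 in pGRHL2 and 8.88 to 9.24 in pcDNA3.

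The genes that handle the cargo of these carriers were examined by list. Together with further carriers, receptors, regulators and markers, 162 genes outside the 9 carriers were in the table, of which limma called 3 higher and 3 lower. Over all genes, 1.69% were called higher and 0.501% lower. The lists were drawn up with earlier results of these data known, so these shares are no neutral yardstick, here or for the lists below. Around RBP4, 16 retinol-handling genes were present and 1 was called higher. CRABP2, which brings retinoic acid to its nuclear receptors, was at 6.28, 6.12, 6.20 and 6.20 in pGRHL2 libraries 1 to 4 and at 5.69, 5.86, 5.78 and 5.78 in pcDNA3 libraries 1 to 4. Its groups did not overlap, and its log2 FC was 0.42 ± 0.13 (adjusted p = 0.010 by limma). The call was lost without replicate 1 or replicate 3 (highest adjusted p of 0.059). RARA, a retinoic acid receptor, had the lowest log2 FC of the list (-0.24 ± 0.18; adjusted p = 0.141 by limma).

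Around TF and HPX, 21 genes of iron and heme handling were present, of which 1 was called higher and 1 lower. HMOX1, the heme oxygenase that breaks down the heme brought in by hemopexin, was at 9.97, 9.82, 9.75 and 10.04 in pGRHL2 libraries 1 to 4 and at 10.42, 10.58, 10.64 and 10.35 in pcDNA3 libraries 1 to 4. HMOX1 was lower in 4 of 4 pairs, by a log2 FC of -0.60 ± 0.27 or 0.659-fold (adjusted p = 0.018 by limma). BMP6, the signal that raises hepcidin when iron is plentiful, was higher by a log2 FC of 0.30 ± 0.11 (adjusted p = 0.022 by limma). Leaving out a replicate lost the call on HMOX1 in 3 of 4 fits and the call on BMP6 in 4 of 4 fits. The call on BMP6 was also lost when trends on level, length and GC content were removed (adjusted p = 0.055 by limma). HAMP, which encodes hepcidin, had a log2 FC of 0.01 ± 0.09, and TFRC, the transferrin receptor, one of 0.02 ± 0.13, so that neither was called; both are named for their role.

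Around GC, 0 of 10 genes of vitamin D handling were called. The log2 FC ranged from -0.06 ± 0.25 for CYP24A1, which inactivates the hormone, to 0.17 ± 0.12 for DHCR7, which uses up its skin precursor. Of 12 genes for receptors and partners that take up or rescue the carriers, 0 were called, from -0.06 ± 0.35 for LRP1 to 0.13 ± 0.04 for ASGR2. FCGRT, the receptor that saves albumin from degradation, had a log2 FC of 0.08 ± 0.11. The neighbours of ALB and GC on chromosome 4 gave 0 of 6 called (CXCL8 -0.20 ± 0.39 to COX18 0.04 ± 0.04). CXCL8 had an adjusted p of 0.511 by limma and was called lower without replicate 4 (-0.39; adjusted p = 0.034 by limma), 1 of 68 genes called lower in that fit. Pair 4 was the one that stood apart for CXCL8 (0.39), so the agreement of the rest is no separate result. The neighbours of AHSG and FETUB on chromosome 3 gave 0 of 8 called (EIF4A2 -0.14 ± 0.15 to RFC4 0.07 ± 0.11).

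Among 15 other plasma transport proteins, LRG1 was called higher. LRG1, a leucine-rich glycoprotein that binds cytochrome c, was at 8.36, 8.31, 8.27 and 8.33 in pGRHL2 libraries 1 to 4 and at 7.98, 8.03, 8.07 and 8.01 in pcDNA3 libraries 1 to 4. It was higher by a log2 FC of 0.29 ± 0.07 (adjusted p = 0.038 by limma), but the call was lost whichever replicate was left out (adjusted p from 0.081 to 0.219). HP, the hemoglobin carrier haptoglobin, had a log2 FC of 0.30 ± 0.34 with 0.80 in pair 2, and ORM1, a drug-binding glycoprotein, one of -0.30 ± 0.35. Neither was called, and the values were 0.13 for HP without replicate 2 and -0.15 for ORM1 without replicate 3.

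The liver-enriched transcription factors, which include the HNF1 and PAR bZIP proteins, gave 25 genes in the table, of which 2 were called lower and 0 higher, beside 0.501% and 1.69% of all genes. Log2 FC were negative in 19 of 25, with a median of -0.07, and in 8519 of all 17561 genes, with a median of 0.0017. CREB3L3, a membrane-bound factor of hepatocytes, was at 7.37, 7.31, 7.33 and 7.29 in pGRHL2 libraries 1 to 4 and at 7.73, 7.79, 7.77 and 7.81 in pcDNA3 libraries 1 to 4. Its groups were well apart, by a log2 FC of -0.45 ± 0.06 (adjusted p = 0.0054 by limma), and the call was kept whichever replicate was left out. TEF, a PAR bZIP factor, was at 5.71, 5.62, 5.58 and 5.60 in pGRHL2 libraries 1 to 4 and at 5.94, 6.04, 6.07 and 6.06 in pcDNA3 libraries 1 to 4. It was lower by a log2 FC of -0.40 ± 0.11 (adjusted p = 0.0087 by limma), which lost the call without replicate 3 (adjusted p of 0.056). The highest log2 FC of the list was 0.11 ± 0.38 for NR1H4, the bile acid receptor. All 6 calls described for these lists were lost when the variance was moderated without its trend on level (limma adjusted p from 0.055 to 0.112), a setting that called 4 higher and 2 lower genes in the whole table.

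**Figure D5:**
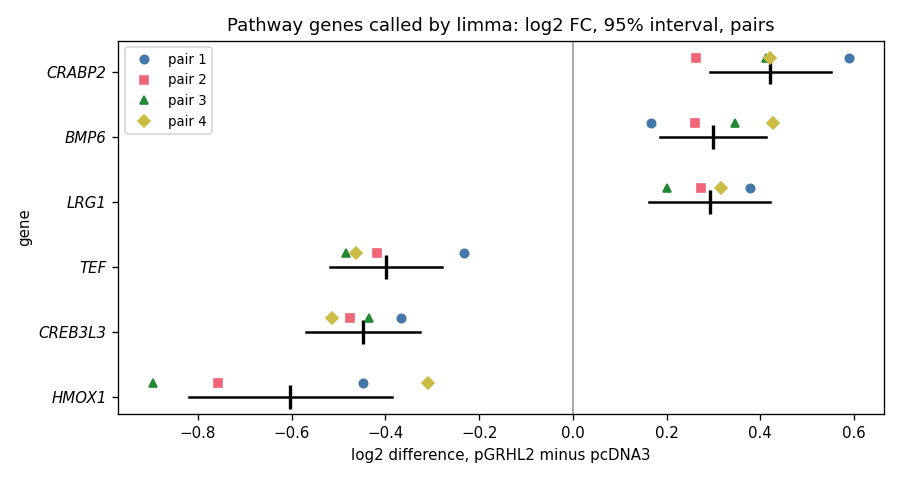
Log2 difference between pGRHL2 and pcDNA3 (x axis) of the 6 listed genes called by limma (y axis), with the log2 FC as a tick, its 95% interval as a line and the 4 pair differences as points. CRABP2, BMP6 and LRG1 lie above 0 in 4 of 4 pairs, and TEF, CREB3L3 and HMOX1 below 0 in 4 of 4 pairs.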

How the data were processed

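The labels gave each library its plasmid and replicate number. Per the methods and the submitters' processing notes, the authors aligned reads to hg38 (HISAT2), counted them per gene without strand (HTSeq), left out genes with few reads, and took rlog values (DESeq2) over transcript length. The deposited values are on a log2 scale, although the table's name says FPKM, and 3.71% lie below 0. Every pair of same-numbered libraries had the same mean in each gene of the authors' log2 values, a step not described in the sources used here. Deviations within a pair are mirrored by construction, so that the correlation check for pairing is void, and the replicate number entered the fit as a block (3 residual degrees of freedom). A stray character was stripped from 1 value. There were 0 columns of other samples. The methods state independent biological replicates. The p-values rest on the spread of the 4 pair differences and hold nothing of the spread between replicate means.

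Genes were tested with limma 3.58.1 in R 4.3.3 (lmFit, eBayes with trend, Benjamini-Hochberg adjustment over 17561 genes, threshold of 0.05), and pair differences with exact two-sided sign-flip tests. A run on simulated data required only that known changes came back with about their mean size, so it is no check of the calls. The named genes were the carriers, GRHL2, each gene called and the extremes of 14 other lists, and the 5 genes most like ALB, besides genes named for their role. The carriers and lists were chosen with earlier results of these data known. GENCODE release 44 held 99.9% of the symbols. Other settings were no replicate block, robust eBayes, eBayes without trend, arrayWeights, 2 scalings, a mean value of at least 5, trends on level, length and GC content removed, an adjusted p under 0.01, and leaving out each replicate.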

Additional observations from a re-analysis of the deposited data

Results flagged for a closer look

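Of 45 genes examined, 7 had 1 pair whose difference stood apart from the other 3 by Dixon's test at the 95% level. The chance rate of about 1 in 20 holds for genes that were not selected. Many of the 45 were taken as extremes of their lists or for their likeness to ALB, so that rate is no yardstick here. Among the carriers these were ALB and TTR. The pair 2 difference of ALB was 0.33, while the other pairs had a median of -0.14, and that of TTR was 0.55, while the other pairs had a median of -0.03. FGB, a fibrinogen chain, differed by 0.77 in the same pair against 0.13. In pair 4, CXCL8 differed by 0.39 against -0.37, DHCR7 by -0.0026 against 0.23 and LRP1 by -0.59 against 0.12. IFIT2, an interferon-induced gene, differed by 0.36 in pair 3 against -0.33. All values are pGRHL2 minus pcDNA3 on the log2 scale.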

How the results depend on the processing

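With the replicate block, 0 carriers were called. In the limma fit with no replicate block, 1821 genes were called higher and 1427 lower, with 1 carrier higher (AHSG, 0.14), and 17 higher and 12 lower genes of the other lists. The moderation without trend called 4 higher and 2 lower genes and 0 list genes either way. With arrayWeights, 503 higher and 221 lower genes and 5 higher list genes were called, and the log2 FC turned to 7.8e-04 for GC and 0.020 for APOA1. With library totals made equal without GRHL2, 495 genes were called higher, and the log2 FC was 0.0039 for AMBP, 0.013 for GC and 0.0025 for SLC31A1. The groups of 2 carriers did not overlap there. The share over all genes was not counted for that scaling and was 24.0% in the main fit. At a mean value of at least 5, 63 genes were called higher, and FETUB and GC had no value. With trends on level, length and GC content removed together with the block, 149 genes were called higher, and the log2 FC was -0.011 for FETUB, 4.4e-04 for GC, 0.012 for MIS18A and 0.020 for SLC31A1. At an adjusted p under 0.01, 77 higher and 10 lower genes and 0 higher list genes were called. Leaving out each replicate in turn gave 79 to 156 higher and 8 to 68 lower genes, 0 to 1 carriers called lower (ALB, without replicate 2), 0 to 1 higher and 1 to 4 lower list genes, and 1 to 4 carriers with groups that did not overlap. The highest count, 4, came without replicate 2, where this held for 34.0% of all genes. Over these leave-one-out fits the log2 FC ranged from -0.15 to 0.025 for ALB, -2.9e-04 to 0.19 for TTR, -0.053 to 0.12 for TF, -0.15 to -0.047 for RBP4, 0.10 to 0.17 for AHSG, -0.0059 to 0.022 for FETUB, -0.027 to 0.0028 for AMBP, 0.040 to 0.13 for HPX and -0.0063 to 0.0042 for GC. RBP4, AHSG and HPX kept their sign under every setting tried. Genes that turned sign when a replicate was left out were APOA1 (-0.13 to 0.074), APOH (-0.13 to 0.026), CARNMT1 (-0.16 to 0.013), CYP24A1 (-0.14 to 0.018), GINS2 (-0.11 to 0.043), ITIH2 (-0.13 to 0.018), LRP1 (-0.13 to 0.11), MIS18A (-0.13 to 0.033), NR1H4 (-0.064 to 0.23) and SLC31A1 (-0.098 to 0.026). The cause was not tested. Depth is unknown, so that no detection limit can be given, and the rlog understates differences of the weakly expressed FETUB and GC.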

Other observations

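Carriers leave the cell through the endoplasmic reticulum and Golgi, and 25 genes of translocation and cargo export were in the table. Of these, 0 were called by limma, 18 of 25 had negative log2 FC and the median was -0.03, with extremes of -0.15 ± 0.26 for SEC24C, a coat protein of export vesicles (-0.021 without replicate 4), and 0.10 ± 0.12 for SSR4, a subunit of the translocon-associated complex. Of 10 interferon-response genes, 0 were called and 7 had positive log2 FC, with a median of 0.06 and extremes of -0.16 ± 0.35 for IFIT2 and 0.23 ± 0.18 for IFI6.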
